A study of Mus musculus with 19 samples.

Results

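Major histocompatibility complex (MHC) class I presentation and the immunoproteasome were followed through 10 genes in sorted mouse hippocampal microglia: H2-K1, H2-D1, B2m, Tap1, Tap2, Tapbp, Nlrc5, Psmb8, Psmb9 and Psmb10. They were chosen by name, with earlier results of these data known. All 10 were found among the 23951 genes of each of the 2 deposited expression tables. Class I molecules show peptides from inside a cell to CD8 T cells. A polymorphic heavy chain (H2-K1, H2-D1) pairs with the light chain beta-2 microglobulin (B2m), peptides reach the endoplasmic reticulum through the TAP transporter (Tap1, Tap2), and tapasin (Tapbp) holds the empty class I molecule at that transporter. The peptides are cut by the proteasome. Interferons exchange its constitutive catalytic subunits Psmb5, Psmb6 and Psmb7 for the immunosubunits Psmb8, Psmb9 and Psmb10, and Nlrc5 is the transactivator that binds class I promoters. Resting microglia are known for low class I expression, which interferon raises.

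The study asked what loss of the myeloid transcription factor PU.1 (gene Spi1) does to microglia in a mouse with neurodegeneration. RNA came from CD11b and CD45 sorted hippocampal cells in 15 libraries, 3 in each of 5 groups, and every group carried Cx3cr1CreER+/-, a tamoxifen-inducible Cre expressed in Cx3cr1-positive cells, which include microglia and some other myeloid cells. At 4.5 months the groups were CK (Cx3cr1CreER+/- with CK, littermate controls), CK-p25 (Cx3cr1CreER+/- with CK-p25) and CK-p25 PU.1 cKO (the same with PU.1 fl/fl). CK-p25 mice switch on p25, an activator of the kinase Cdk5, in forebrain neurons. These animals received tamoxifen at 50 mg/kg on 5 days when p25 was induced at 3 months, and tissue was taken 6 weeks afterwards. At 3 months the groups were labelled control (Cx3cr1CreER+/-) and labelled PU.1 cKO (Cx3cr1CreER+/- with PU.1 fl/fl), with the same tamoxifen dose and tissue taken 1 week afterwards, without p25. Whether the 3 libraries within each group are separate animals is not stated, and the p-values therefore cover the spread among these samples only, which may be technical.

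The targeted gene did not follow the 3-month labels. Spi1 stood at 409, 338 and 337 FPKM (sequenced fragments divided by transcript length and by the total mapped in that library) in those labelled PU.1 cKO and at 261, 105 and 248 in the ones labelled control. The titles and the sample sources contradict each other there, and the libraries titled as controls sit under columns named for PU.1. The groups are therefore named as labelled, and the other reading turns the sign of every 3-month difference. At 4.5 months the CK-p25 PU.1 cKO libraries had Spi1 at 165, 152 and 224 FPKM. The CK libraries had 256, 230 and 251, the CK-p25 libraries 251, 208 and 298, and neither difference from them passed the test (adjusted p = 0.0751 and 0.745, limma).

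Summed FPKM ranged from 449780 to 650060 per library, with 10140 to 10954 genes at 1 FPKM or more. The tables give no read counts, so the depth of each library is unknown. Microglial markers were present in all 15 libraries, with their 8 genes summing to between 7873 and 31746 FPKM. CK-p25 replicate 3 was the only 4.5-month library whose sequence file name carried another prefix, and 42.1% of genes were listed at 0 in it. Whether the prefix marks a separate sequencing run is not stated, so some values are also given without this library. Among the 3-month libraries, labelled control replicate 1 stood apart with 14674 FPKM summed over 5 neutrophil markers, against 45.9 to 334 in the other 5 libraries.

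Promoter windows from RefSeq (assembly GRCm38.p6, 250 bases before to 50 after the annotated start) were matched to 8 of the 10 genes, all but Tap2 and Nlrc5. The expression tables were made on mm9, so these coordinates belong to RefSeq's build only. Those of both heavy chains, the light chain and the transporter gene Tap1 are shown. These genes rose in CK-p25, as did the others with windows. The windows lie at chr17:34000298-34000597 on the minus strand for H2-K1, chr17:35262844-35263143 on the plus strand for H2-D1, chr2:122147437-122147736 on the plus strand for B2m and chr17:34187306-34187605 on the plus strand for Tap1. Each covers the upstream region and the start of the transcript. Capitals mark matches, on either strand, to the interferon-stimulated response element core (ISRE core, GAAA and GAAA with any 2 bases between), a shorter interferon regulatory factor element GAANNGAAA, the NF-kB consensus, the CRE core TGACG and the CCAAT box.
H2-K1: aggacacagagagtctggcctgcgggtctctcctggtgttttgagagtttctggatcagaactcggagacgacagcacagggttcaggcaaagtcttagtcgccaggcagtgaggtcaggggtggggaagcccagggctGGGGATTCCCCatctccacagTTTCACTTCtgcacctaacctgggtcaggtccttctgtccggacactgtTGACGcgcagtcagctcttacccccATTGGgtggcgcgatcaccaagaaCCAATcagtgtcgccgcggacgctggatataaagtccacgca
H2-D1: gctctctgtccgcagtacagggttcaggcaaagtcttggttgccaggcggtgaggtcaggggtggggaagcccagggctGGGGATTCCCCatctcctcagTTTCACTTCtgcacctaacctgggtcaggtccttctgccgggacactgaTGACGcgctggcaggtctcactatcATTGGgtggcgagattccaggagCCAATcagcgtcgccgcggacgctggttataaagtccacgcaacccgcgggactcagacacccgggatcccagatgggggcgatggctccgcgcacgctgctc
B2m: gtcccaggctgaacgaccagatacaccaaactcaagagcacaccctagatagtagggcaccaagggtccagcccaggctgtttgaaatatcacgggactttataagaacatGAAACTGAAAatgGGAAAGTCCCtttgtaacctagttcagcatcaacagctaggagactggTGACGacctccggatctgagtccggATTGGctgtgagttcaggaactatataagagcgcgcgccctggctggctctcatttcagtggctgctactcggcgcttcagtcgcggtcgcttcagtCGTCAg
Tap1: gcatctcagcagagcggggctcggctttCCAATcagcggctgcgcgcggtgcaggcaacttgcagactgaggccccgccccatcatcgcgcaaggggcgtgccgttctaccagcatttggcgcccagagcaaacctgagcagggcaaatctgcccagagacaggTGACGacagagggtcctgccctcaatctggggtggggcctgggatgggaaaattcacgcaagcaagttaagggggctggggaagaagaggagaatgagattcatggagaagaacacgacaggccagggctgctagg

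Both heavy-chain windows held the NF-kB consensus, the short interferon regulatory factor element, the CRE core and the CCAAT box in the same order. Their letters were identical at 211 of 240 aligned positions (87.9%). In the B2m window the ISRE core lay at -139 to -130 from the start, next to the NF-kB consensus at -126 to -117. The ISRE core occurred in 3.44% of 32851 mouse promoter windows of this length and in the B2m window among the 8. The short element occurred in 7.52% of all windows and in those of H2-K1 and H2-D1, and the NF-kB consensus in 8.46% of all windows and in those of H2-K1, H2-D1 and B2m. The CRE core (20.8% of all windows) was in 5 of the 8, those of H2-K1, H2-D1, B2m, Tap1 and Psmb9. The CCAAT box (37.4% of all windows) was in these and in that of Tapbp, 6 of 8. The gamma-activated site core TTCNNNGAA, present in 8.3% of all windows, was matched in that of Psmb8, and the window of Psmb10 held none of these letters. Windows of the constitutive subunits Psmb5 and Psmb6 were searched as well. Both held the CRE core, and that of Psmb6 also held the short element. None of the 8 windows held the PU.1 core AGGAAGT (9.35% of all windows) or the ETS-IRF composite (GGAA and GAAA with any 2 bases between, 2.72%), whose letters include the short element. These are matches of letters and not shown binding sites. Tap1 and Psmb9 start 226 bases apart on opposite strands, so their windows share 275 bases. The CRE core and the CCAAT box counted for both are the same letters, so these windows are not independent. Psmb9, Tap1, Psmb8 and Tap2 are neighbours on chromosome 17.

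**Figure D1:**
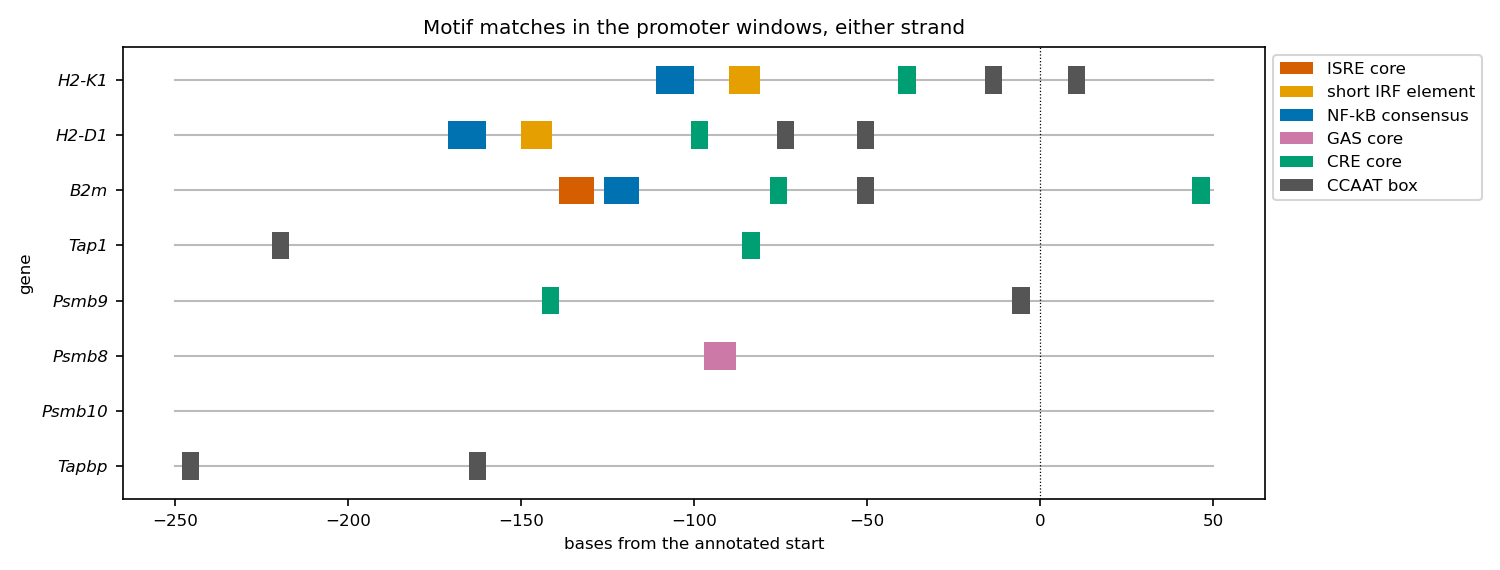
Motif matches in the promoter windows of 8 genes, by bases from the annotated start (0, dotted line); coloured boxes are matches on either strand. The windows of H2-K1 and H2-D1 carry the same series of motifs, shifted along the window, and B2m has the ISRE core.

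CK-p25 was compared with CK to ask how the genes behaved during neurodegeneration. Apart from Nlrc5, all 9 genes rose in CK-p25, and no CK-p25 library overlapped CK for any of the 10. The median log2 difference of the 9 was 1.29 (1.45 with Nlrc5), beside -0.00 over all 10894 genes tested. Across those genes 17.6% were called higher and 13.7% lower by limma on log2(FPKM + 1) at an adjusted p below 0.05. The groups did not overlap for 46.5%. Because the 10 genes were chosen with earlier results of these data known, their count beside these shares is a description. Nlrc5 passed the filter of a mean of 1 FPKM only through its level in the groups with p25, so it had to differ, and its values are a description. The other 9 were above 16 FPKM in every 4.5-month library.

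H2-D1 and H2-K1, the heavy chains, had the largest log2 differences of these 9. H2-K1 was at 170, 203 and 200 FPKM in CK and at 1844, 1869 and 1793 in CK-p25, a rise of 3.26 ± 0.12 on the log2 scale (SE, adjusted p = 2.5e-06, limma, 3 libraries a group, as below). The CK-p25 libraries lay close together, far above every CK library. H2-D1 was at 317, 448 and 419 FPKM in CK and at 5239, 3065 and 6049 in CK-p25, a rise of 3.55 ± 0.25 (adjusted p = 4.4e-05). Here CK-p25 replicate 2 was the lowest of its group. H2-K1 and H2-D1 have near-identical copies among the class I genes, and the split of shared reads between them is uncertain. B2m was the most abundant of the 10 in every 4.5-month library, at 4364, 3468 and 3495 FPKM in CK and 13900, 13903 and 7807 in CK-p25. Its rise of 1.61 ± 0.23 (adjusted p = 0.0014) included a low value in CK-p25 replicate 3, and it was 1.89 ± 0.14 without that library.

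Among the genes of peptide transport and loading, Tap1 changed more than its partner Tap2. Tap1 stood at 16.9, 22.7 and 23.5 FPKM in CK and at 76.3, 48.9 and 89.7 in CK-p25, a rise of 1.69 ± 0.23 (adjusted p = 0.0012). Tap2, the other subunit of the heterodimer, stood at 55.6, 62.9 and 57.7 FPKM in CK and at 97.5, 74.2 and 98.3 in CK-p25, a rise of 0.60 ± 0.12 (adjusted p = 0.0081). Tap2 was above Tap1 in every library of CK and of CK-p25. Tapbp was at 233, 227 and 226 FPKM in CK, a narrow spread, and at 397, 300.5 and 378 in CK-p25, a rise of 0.64 ± 0.11 (adjusted p = 0.0034).

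Nlrc5, the class I transactivator, was the least abundant of the 10. Its level was 0.294, 0.487 and 0.458 FPKM in CK and 5.41, 4.46 and 3.59 in CK-p25. The group means were 0.413 and 4.49 FPKM. The difference of 1.95 on the log2(FPKM + 1) scale understates the change of a gene this low.

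All 3 immunosubunits were called higher, Psmb10 at the edge of the threshold. Psmb8 stood at 136, 136 and 149 FPKM in CK and at 349, 276 and 390 in CK-p25, a rise of 1.25 ± 0.14 (adjusted p = 3.7e-04). Psmb9 stood at 51.2, 54.7 and 59.7 FPKM in CK and at 141, 123 and 145 in CK-p25, a rise of 1.29 ± 0.11 (adjusted p = 8.9e-05). Both were well apart from CK in every library. Psmb10 stood at 56.6, 48.8 and 54.6 FPKM in CK and at 74.8, 60.2 and 86.9 in CK-p25, a difference of 0.45 ± 0.15 with an adjusted p of 0.0499. Its call was lost under most alternatives, among them leaving out CK-p25 replicate 3 (0.33 ± 0.14, adjusted p = 0.0940, limma). There the other genes were still called, Nlrc5 left aside. The lowest CK-p25 value was that of replicate 2 for 7 of the 10 genes, all but H2-K1, B2m and Nlrc5.

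**Figure D2:**
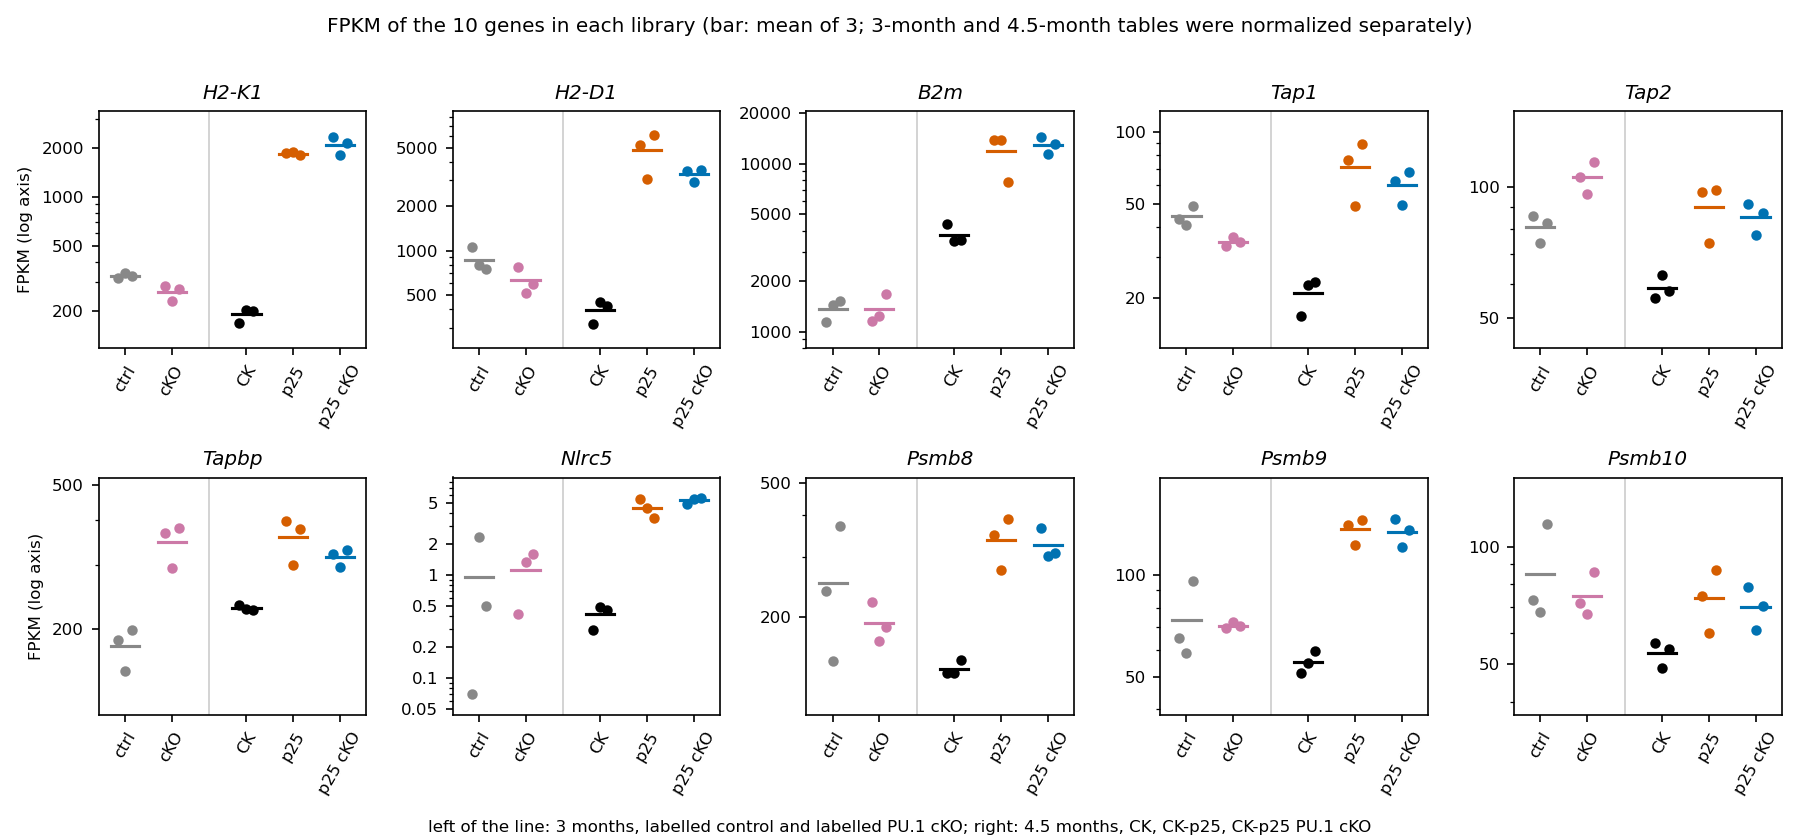
FPKM of the 10 genes in each of the 15 libraries on log axes (points: libraries; bars: means of 3), with the 3-month groups left of the grey line. In each panel the CK libraries lie below all CK-p25 and CK-p25 PU.1 cKO libraries, for example 170 to 203 FPKM against 1791 to 2328 for H2-K1.

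CK-p25 PU.1 cKO was compared with the same CK libraries. Of the 9 genes apart from Nlrc5, 8 rose, all but Psmb10, and for all 10 the groups did not overlap. Over all genes tested 17.8% were called higher, 13.3% lower and 58.5% did not overlap. The median difference of the 9 was 1.26 (1.37 with Nlrc5), beside -0.00 over all genes. H2-K1 stood at 2328, 1791 and 2136 FPKM and H2-D1 at 3482, 2912 and 3541, differences from CK of 3.44 ± 0.12 (adjusted p = 1.5e-06) and 3.08 ± 0.25 (adjusted p = 8.6e-05). B2m stood at 14367, 11447 and 13181 FPKM, a rise of 1.79 ± 0.23 (adjusted p = 8.3e-04). Replicate 2 was the lowest of its group for these chains, and for 9 of the 10 genes, all but Nlrc5. The 3 libraries lay closer together than those of CK-p25 for H2-D1 and B2m, and farther apart for H2-K1.

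Tap1 was at 62.2, 49.2 and 68.2 FPKM, a rise of 1.47 ± 0.23 over CK (adjusted p = 0.0022). Tap2 at 91.3, 77.6 and 87.3 FPKM and Tapbp at 322, 297 and 331 FPKM rose by 0.53 ± 0.12 and 0.47 ± 0.11 (adjusted p = 0.0132 and 0.0137). Nlrc5 at 4.87, 5.48 and 5.6 FPKM was 2.16 above CK on that scale, again a description. Psmb8 at 366, 303 and 309 FPKM rose by 1.21 ± 0.14 (adjusted p = 4.3e-04), and Psmb9 at 146, 121 and 135 FPKM rose by 1.26 ± 0.11 (adjusted p = 9.5e-05). Psmb10 at 78.9, 61.0 and 70.6 FPKM differed by 0.39 ± 0.15 and missed the threshold (adjusted p = 0.0844). Without CK-p25 replicate 3 in the shared fit, its adjusted p was 0.0366 (limma).

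The PU.1 deletion within CK-p25 was examined by setting CK-p25 PU.1 cKO against CK-p25. Spi1 itself differed by -0.49 there, was not called and overlapped, so how far it was deleted in these libraries is uncertain. None of the 10 genes passed the test, and for each of them the groups overlapped. This was so across the table, with 0% of genes called higher and 0% lower by limma, 671 genes at an unadjusted p below 0.05 and groups not overlapping for 9.38%. The median difference of the 10 was -0.06, and their adjusted p-values were 0.745 or more. The most negative difference was that of H2-D1, -0.48 with a 95% interval from -1.05 to 0.10, and the most positive that of Nlrc5, 0.21 with an interval from -0.13 to 0.55. The interval ran from -0.09 to 0.44 for H2-K1, from -0.36 to 0.70 for B2m, from -0.76 to 0.32 for Tap1 and from -0.24 to 0.22 for Psmb9. For Psmb9 a fall or rise beyond those narrow bounds lies outside the interval, whereas for H2-D1 and Tap1 larger falls do not. Without CK-p25 replicate 2 the differences of H2-D1 and Tap1 were -0.77 and -0.47, still not called (adjusted p = 0.366 for both). Without CK-p25 replicate 3 they were -0.28 and -0.04.

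**Figure D3:**
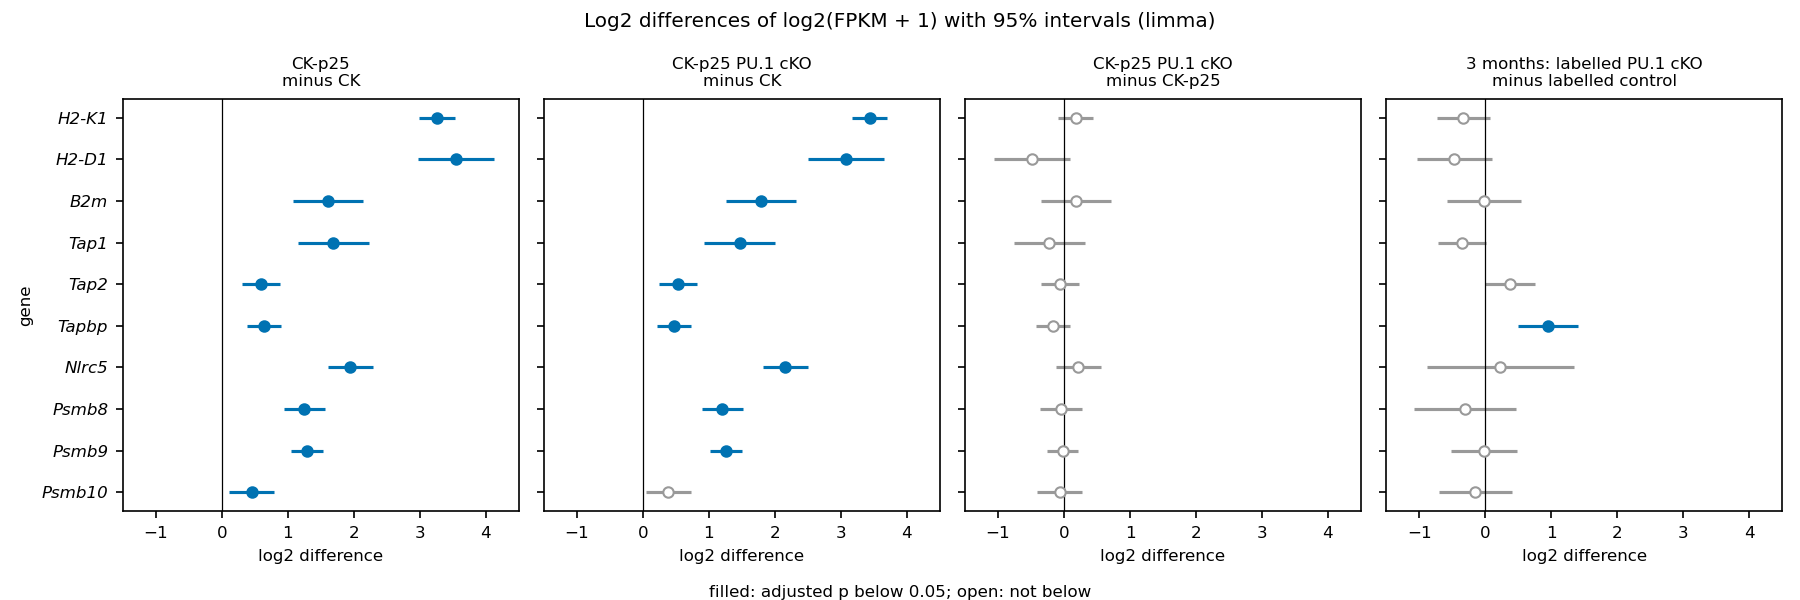
Log2 differences of the 10 genes in 4 comparisons, with 95% intervals from limma; filled points have an adjusted p below 0.05. Every point of the CK-p25 against CK panel lies right of 0, from 0.45 for Psmb10 to 3.55 for H2-D1, and every interval of the CK-p25 PU.1 cKO against CK-p25 panel spans 0.

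Markers of cell identity moved with the same groups. The 8 microglial markers summed to 25079 to 27508 FPKM in CK, 16528 to 18292 in CK-p25 and 15175 to 17089 in CK-p25 PU.1 cKO. In CK-p25 against CK, 4 of them fell (P2ry12, Tmem119, Cx3cr1 and Csf1r) and 1 rose (Aif1). In these bulk samples fewer cells of a type and less RNA per cell cannot be told apart. The 9 T and NK cell markers summed to 0.433 to 7.71 FPKM in CK, 3.10 to 14.3 in CK-p25 and 5.71 to 43.6 in CK-p25 PU.1 cKO. None was at 0 in all libraries of a group. Of the 5 tested, 3 had a CK mean under 1 FPKM and passed the filter only through the p25 groups; these include Klrb1c, a receptor of NK cells, at 0.0381, 0.0615 and 0 FPKM in CK and 2.06, 1.41 and 1.68 in CK-p25, and neither of the other 2 was called. The 6 monocyte markers summed to 6.06 to 21.1, 18.5 to 64.1 and 44.9 to 65.6 FPKM in the same order, and none of the 5 with a CK mean of 1 FPKM or more was called in either p25 group. The 5 astrocyte markers summed to 4.74 to 12 FPKM in CK, 34.5 to 234 in CK-p25 and 27.1 to 124 in CK-p25 PU.1 cKO. Gfap was called in both p25 groups. The 5 neutrophil markers overlapped between groups but reached 819 FPKM in CK-p25 replicate 2. That library also had 531 FPKM summed over 5 oligodendrocyte markers, against 167 and 113 in the others of its group, and 40.5 over 6 endothelial markers, against 12.1 and 5.43. Among the endothelial markers Pecam1 was lower in both p25 groups (-2.29 and -2.75), and Flt1, under 1 FPKM on average in CK, was higher. CK replicate 1 stood apart from the other CK libraries, with 6.49 FPKM over 6 border macrophage markers against 260 and 310, and 0.145 over the neutrophil markers against 120 and 74.8. It was the lowest CK library for 7 of the 10 genes. Without it, the genes apart from Nlrc5 were all called in CK-p25 except Psmb10. None of the border macrophage markers was called in either p25 group. The part of these cells in the class I levels was not tested. The 10 genes together made up 0.949% to 1.08% of the summed FPKM in CK, 2.59% to 3.6% in CK-p25 and 3.13% to 3.53% in CK-p25 PU.1 cKO.

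The 3-month comparison, labelled PU.1 cKO against labelled control, gave 1 call among the 10 genes. The libraries labelled PU.1 cKO had Tapbp at 370, 295 and 381 FPKM and the labelled controls at 186, 153 and 199, a rise of 0.95 ± 0.19 (adjusted p = 0.0111, limma). Of the 10845 genes tested, 12.4% were called higher and 17.8% lower, so 1 call in 10 is near or below the background. The groups did not overlap for 4 of the 10 genes, against 48.8% of all genes. The Tapbp call was lost without labelled PU.1 cKO replicate 3 (0.88, adjusted p = 0.0586), and was 0.99 ± 0.25 (adjusted p = 0.0376) without labelled control replicate 1, the library high in neutrophil markers.

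The other 3 genes without overlap were not called. Tap2 was higher in the libraries labelled PU.1 cKO, at 105, 96.4 and 114 FPKM against 85.7, 74.3 and 82.6 (difference 0.38 ± 0.16, adjusted p = 0.112). H2-K1 was lower there, at 286, 230 and 272 FPKM against 320, 340 and 328 (-0.33 ± 0.17, adjusted p = 0.178). Tap1 was lower as well, at 33.3, 36.2 and 34.4 FPKM against 43.1, 40.8 and 49.2 (-0.34 ± 0.16, adjusted p = 0.129). The subunits of the TAP transporter thus differed in sign, neither past the threshold. H2-D1 overlapped, at 775, 517 and 595 against 1056, 796 and 746 FPKM (-0.46 ± 0.24, adjusted p = 0.176). B2m, at 1155, 1245 and 1674 against 1137, 1443 and 1532 FPKM, differed by -0.02 ± 0.24 (adjusted p = 0.957).

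Nlrc5 varied widely within both 3-month groups, at 0.413, 1.33 and 1.59 FPKM under the label PU.1 cKO and 0.0691, 2.32 and 0.494 in those labelled control. Its difference of 0.23 had a 95% interval from -0.89 to 1.35. The immunosubunits overlapped. Psmb8 was at 221, 169 and 186 against 239, 148 and 371 FPKM, Psmb9 at 69.5, 72.4 and 70.4 against 64.9, 58.9 and 96.1, and Psmb10 at 71.8, 67.1 and 86.0 against 73.0, 68.2 and 114. Labelled control replicate 3 was the highest library for all 3 immunosubunits, and their differences were -0.30 ± 0.33, -0.02 ± 0.21 and -0.15 ± 0.24, none called.

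Cell-type markers differed between the 3-month groups. The microglial markers summed to 27427 to 31746 FPKM under the label PU.1 cKO and to 7873 to 14524 in those labelled control, with 7 of 8 called. In the same order, the 6 monocyte markers summed to 8.99 to 44.8 against 135 to 998 FPKM, the 6 border macrophage markers to 261 to 335 against 474 to 1528, and the 5 neutrophil markers to 45.9 to 334 against 86.5 to 14674. In neither group were border macrophage, monocyte or neutrophil markers at 0 in all 3 libraries. Their part in the 3-month differences was not tested.

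The constitutive counterparts of the immunosubunits gave a scale within each library, since FPKM is per length. Psmb8 exchanges with Psmb5, the chymotrypsin-like subunit, Psmb9 with the caspase-like subunit Psmb6, and Psmb10 with the trypsin-like subunit Psmb7. Psmb5 was at 125, 118 and 122 FPKM in CK. The CK-p25 libraries had 133, 117 and 108, the CK-p25 PU.1 cKO libraries 143, 123 and 133, and its difference between CK-p25 and CK was -0.03 ± 0.10 (adjusted p = 0.833). The ratio of Psmb8 to Psmb5 was 1.08, 1.15 and 1.22 in CK. It reached 2.62, 2.36 and 3.62 in CK-p25, and 2.56, 2.46 and 2.32 where PU.1 was deleted as well. No library of either p25 group overlapped CK, by a log2 difference of 1.29 ± 0.19 and 1.09 ± 0.06.

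Psmb6 itself rose in CK-p25, from 119, 96.1 and 109 to 169, 156 and 189 FPKM (0.66 ± 0.11, adjusted p = 0.0032). The ratio of Psmb9 to Psmb6 was 0.432, 0.569 and 0.550 in CK. It reached 0.835, 0.788 and 0.768 in CK-p25, and 0.822, 0.767 and 0.902 where PU.1 was deleted as well. It stayed below 1 in every library, again without overlap between CK and either p25 group. Psmb7 was called at 0.28 ± 0.09 (adjusted p = 0.0411), a call lost under quantile normalization and when most single libraries were left out, and its sign turned when libraries were scaled to equal summed FPKM. The ratio of Psmb10 to Psmb7 overlapped between CK (1.18, 1.01 and 1.06) and CK-p25 (1.25, 0.989 and 1.46). In CK-p25 PU.1 cKO this ratio was 1.27, 1.21 and 1.22, above CK in each library. An exact two-sided permutation test of 3 against 3 cannot go below 0.1, which was the value for every ratio without overlap (0.15 after adjustment over 12 comparisons). Between the p25 groups the exact permutation p was 0.4 for Psmb8/Psmb5, 0.7 for Psmb9/Psmb6 and 0.9 for Psmb10/Psmb7.

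At 3 months all 3 ratios were higher in the libraries labelled PU.1 cKO, without overlap. Psmb8/Psmb5 was 2.27, 1.89 and 1.85 against 1.26, 1.02 and 1.18, and Psmb9/Psmb6 was 0.485, 0.677 and 0.594 against 0.241, 0.343 and 0.243. Psmb10/Psmb7 was 1.30, 1.29 and 1.67 against 0.615, 0.803 and 0.693. The immunosubunits overlapped between those groups, whereas the constitutive subunits were lower in the libraries labelled PU.1 cKO: Psmb5 by -1.09 ± 0.28, Psmb6 by -1.11 ± 0.31 and Psmb7 by -1.15 ± 0.25 (adjusted p = 0.0256, 0.0333 and 0.0138, limma). Without labelled control replicate 1, the library high in neutrophil markers, Psmb7 alone was called, and without labelled PU.1 cKO replicate 2 or 3 none was. The exact permutation p was 0.1 for each ratio.

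**Figure D4:**
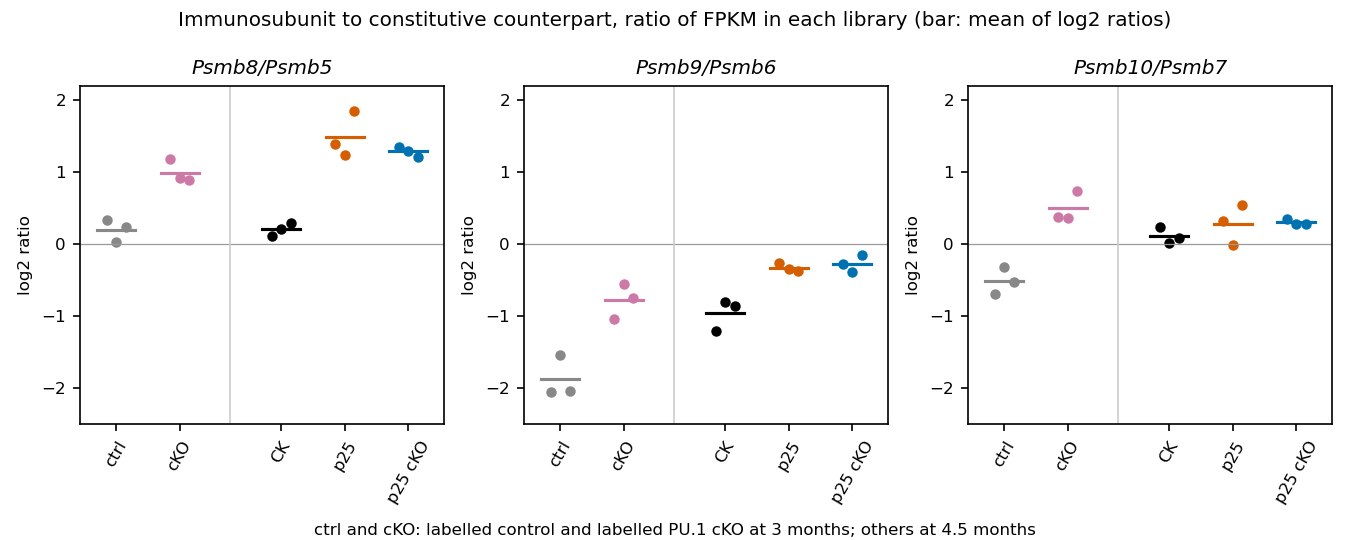
Log2 ratio of each immunosubunit to its constitutive counterpart per library (points; bars: group means of log2 ratios; grey line: equal FPKM). Psmb8/Psmb5 lies between 0.12 and 0.29 in CK and between 1.22 and 1.86 in the p25 groups, while Psmb10/Psmb7 overlaps between CK and CK-p25.

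The other genes of the pathway were taken by list. Of 20 other class I and class I-like genes, 17 were tested at 4.5 months, 5 of which had a CK mean under 1 FPKM and passed the filter only through the p25 groups. Of the other 12, in CK-p25 against CK, 8 rose and 1 fell, with a median of 1.78. Among all genes tested 17.6% were called higher and 13.7% lower. The largest rises were in the Qa region: H2-Q7 went from 0.874, 2.78 and 1.81 FPKM in CK to 198, 83.9 and 197 in CK-p25 (5.79 ± 0.37, adjusted p = 3.3e-05). H2-Q8 (5.27 ± 0.59), H2-Q4 (4.12 ± 0.26) and H2-Q6 (3.97 ± 0.35) were also called. These genes have near-identical copies, so the level of each is uncertain, and H2-Q8 was among the 5 with a CK mean under 1 FPKM. Cd1d1, which presents lipids to NKT cells, was the gene that fell (-0.99 ± 0.18, adjusted p = 0.0045). In CK-p25 PU.1 cKO against CK, 9 of those 12 rose and 1 fell, beside 17.8% and 13.3% of all genes. The largest called differences in the list were those of H2-Q7, H2-Q8, H2-Q2 and H2-Q4, with Cd1d1 again lower (-0.58 ± 0.18). The calls of H2-Q2 and Cd1d1 in that comparison were lost when any 1 library of CK-p25 PU.1 cKO was left out. None was called between the p25 groups.

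The proteasome activator moved with the immunosubunits in p25. Psme1 and Psme2, which form the interferon-inducible PA28 cap, rose in CK-p25 by 1.40 ± 0.13 and 1.06 ± 0.15. The assembly chaperone Pomp rose by 0.67 ± 0.10. In that list 3 of 5 were called higher and 0 lower, beside 17.6% and 13.7% of all genes. The same 3 rose in CK-p25 PU.1 cKO (1.27, 0.98 and 0.51), while Psme3 and Psme4 stood at -0.04 and -0.01 in CK-p25. General chaperones and trimming peptidases differed little. Of 10 such genes, among them Calr, Canx, Pdia3 and Erap1, only Sec61b, a subunit of the translocon, was called in CK-p25 (0.55 ± 0.18), with a list median of 0.13. That call was lost under quantile normalization and equal summed FPKM and when most single libraries were left out. In contrast, 4 of the 10 were called higher and 1 lower without CK-p25 replicate 3. Leaving that library out called 2360 of all 10905 genes higher and 2162 lower. In CK-p25 PU.1 cKO, Sec61b was called higher (0.70 ± 0.18) and the peptidase Tpp2 lower (-0.44 ± 0.14), and neither call held without CK-p25 PU.1 cKO replicate 1.

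Among 20 regulators of class I genes, 5 rose and 4 fell in CK-p25, near the 17.6% and 13.7% of all genes, and the list's median was -0.07. Scaled to equal summed FPKM, 5 were called higher and 11 lower. That scaling called 1120 of all 10894 genes higher and 3975 lower. Irf7, a transcription factor of the interferon response, went from 2.59, 5.32 and 5.56 FPKM in CK to 82.6, 93.7 and 156 (4.34 ± 0.31, adjusted p = 4.4e-05). Stat2, a signal transducer of interferon receptors, rose by 1.86 ± 0.21. Nfkb1, the p105 and p50 subunit of NF-kB, fell by 0.99 on that scale (SE 0.11, adjusted p = 4.3e-04), from 37.6, 36.6 and 38.9 to 18.0, 16 and 21.8 FPKM. With PU.1 deleted as well, 5 rose and 3 fell, with Irf7 at 4.33, Stat2 at 1.69 and Nfkb1 at -1.0. Of 4 interferon genes, Ifnb1 alone passed the filter. It was listed at 0 in all 3 CK libraries and at 0.0856, 1.56 and 5.68 FPKM in CK-p25 (adjusted p = 0.177). Ifng was listed at 0 in every CK and CK-p25 library.

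For comparison, 1 of 6 tested class II genes, the invariant chain Cd74, was called in CK-p25 (3.90 ± 1.04, adjusted p = 0.0227), not without CK-p25 replicate 1, and none in CK-p25 PU.1 cKO. The class II list's median was 2.92 in CK-p25, with all 6 differences positive. The groups did not overlap for 4, beside 46.5% of all genes tested. The median depended on the CK libraries, at 1.49 without CK replicate 1 and 3.84, with 3 called, without CK replicate 2. At 3 months, 12.4% of all genes tested were called higher and 17.8% lower, and the calls among the other class I genes were near those shares. Of 13 other class I genes tested 1 was called higher, H2-T24 (0.90 ± 0.21), and 3 lower in the libraries labelled PU.1 cKO, H2-T22 (-1.54 ± 0.29), H2-Q6 (-0.81 ± 0.24) and Cd1d1 (-0.51 ± 0.16). Psme1 and Psme2 were lower (-0.80 ± 0.19 and -1.0 ± 0.30), as was Sec61b (-1.38 ± 0.30). Of the 20 regulators 7 were called higher, led by Nfkb1 (1.62 ± 0.23), Ifngr1 (1.5 ± 0.22), Irf2 (0.95 ± 0.16) and Irf1 (0.88 ± 0.24), and 1 lower. Irf7 (-0.27) was not called, and 0 of 6 class II genes were. The calls of Cd1d1, H2-Q6 and Psme2 were lost under median centring, and those of H2-T24, Psme1 and Irf1 without labelled PU.1 cKO replicate 2 or 3.

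**Figure D5:**
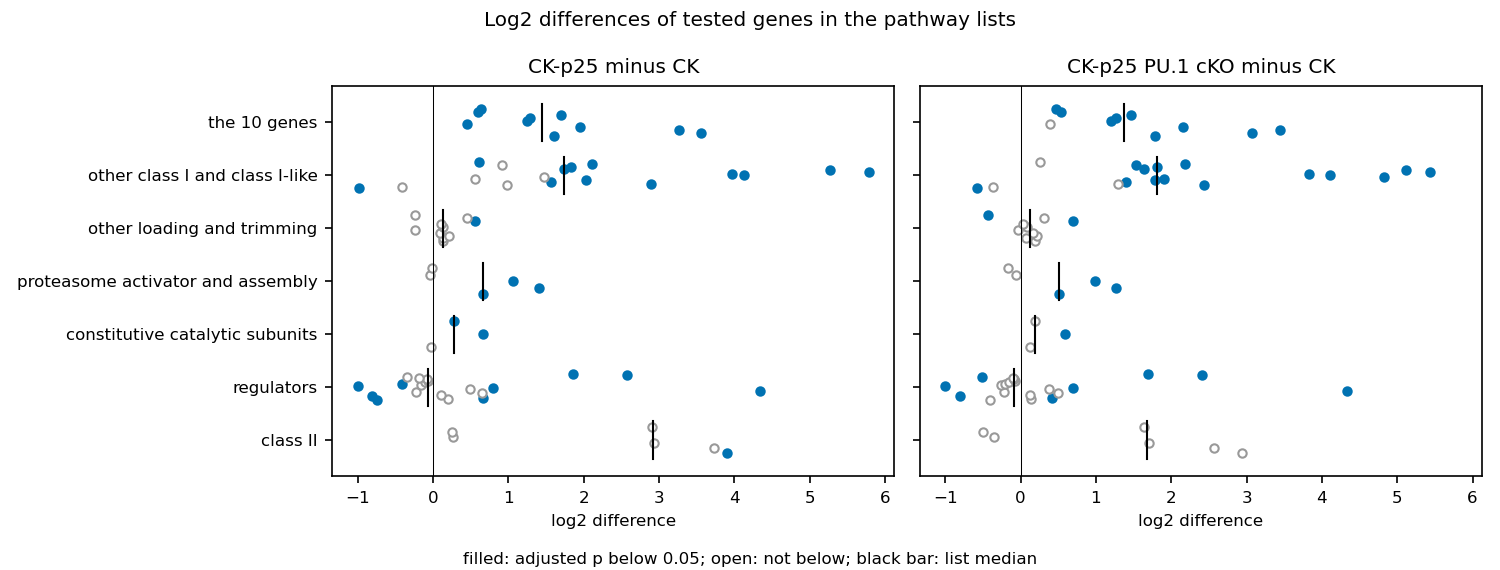
Log2 differences of the tested genes of each pathway list in the p25 groups against CK (filled: adjusted p below 0.05; black bars: list medians). The 10 genes and the other class I genes lie mostly right of 0, with medians of 1.45 and 1.74 in CK-p25 when the genes under 1 FPKM in CK are included, while the loading and trimming list has a median of 0.13.

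The genes whose profile lay closest to the mean of the 10 were found by the root mean square difference of centred log2(FPKM + 1). Over the 9 libraries at 4.5 months these were Ctsl, Ftl1, Arl5c, Speg and Rpl10a, at 0.08 to 0.11. The 10 genes themselves lay between 0.16 (Psmb9) and 0.85 (H2-D1) from their own mean. Psmb9, Tap1 and Psmb8, at 0.16, 0.19 and 0.20, were nearest, and both heavy chains were farthest. Over the 6 libraries at 3 months the closest genes included Yipf6, Fam103a1, Khdrbs1 and 1700066M21Rik, at 0.04 to 0.05, and the 10 genes lay between 0.15 (B2m) and 0.58 (Nlrc5).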

How the data were processed

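RNA was measured in 15 libraries made with SMART-Seq v4 and Nextera XT kits, per the labels' protocols, and 4 ChIP samples were not analysed here. The authors deposited FPKM values per gene, made with TopHat, Bowtie and Cufflinks 2.0.0 on mm9, per the submitters' processing notes; replicates were not pooled. The counting does not use strand as far as the sources used here say. The 2 tables were tested separately because they were normalized separately.

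Differences were fitted with limma 3.58.1 (R 4.3.3) on log2(FPKM + 1), for genes whose mean reached 1 FPKM, with a variance trend and Benjamini-Hochberg adjustment over all genes tested, at a threshold of 0.05, two-sided. The 9 libraries at 4.5 months shared 1 fit, the 6 at 3 months another. The code was tested on simulated data. Ratios were compared by exact permutation. Alternatives were the pseudocount, filter, scaling, variance trend, replicate block, compared libraries only, and leaving out each library; equal summed FPKM was added after seeing the data. Named genes were the 10, up to 4 called genes per list and comparison with the largest difference, Spi1, Psmb5, Psmb6 and Psmb7, and the 5 nearest profiles in each table; some genes this rule names are not reported here, and other names were chosen after their values were seen. The members and lists were chosen with earlier results of these data known. The motifs were searched in RefSeq promoter windows on both strands.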

Additional observations from a re-analysis of the deposited data

How the results depend on the processing

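Psmb10 in CK-p25 against CK (0.45, adjusted p = 0.0499, limma) was the least stable call, with adjusted p-values up to 0.316. B2m lost its call in both comparisons with CK when no filter was applied (adjusted p = 0.863 and 0.796), with its differences of 1.61 and 1.79 unchanged and a larger standard error, and Tapbp lost it under quantile normalization (0.18 and 0.06). Tap2 in CK-p25 PU.1 cKO against CK missed the threshold (0.48, adjusted p = 0.0516) when CK-p25 PU.1 cKO replicate 1 was left out. Scaling to equal summed FPKM, chosen after seeing the data, shifted the median of all genes by -0.28 in CK-p25 and -0.20 in CK-p25 PU.1 cKO against CK. It called 1120 genes higher and 3975 lower in place of 1922 and 1490, and 1352 and 3117 in place of 1937 and 1447. Of the genes apart from Nlrc5 it called all but Psmb10 (0.13) in CK-p25. In CK-p25 PU.1 cKO it called all but Psmb10 and Tapbp (0.24, adjusted p = 0.0547, limma). The number of the 10 called at 3 months was 2 under quantile normalization, with Tap2 added (0.66, adjusted p = 0.0103), and 0 to 1 when libraries were left out in turn. The cause of these changes was not tested.

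Some differences that were not called changed sign. At 3 months B2m was 0.0755 and Psmb9 0.0779 under median centring, and Psmb9 was 0.25 and Psmb10 0.13 under quantile normalization. Leaving out each library in turn gave -0.18 to 0.0865 for B2m, -0.12 to 0.49 for Nlrc5, -0.64 to 0.0215 for Psmb8, -0.16 to 0.19 for Psmb9 and -0.29 to 0.0790 for Psmb10. Between the p25 groups Psmb9 was 0.0138 under quantile normalization, and equal summed FPKM gave 0.0271 for Tap2, 0.0488 for Psmb8, 0.0714 for Psmb9 and 0.0273 for Psmb10. Leaving out libraries there gave -0.10 to 0.31 for B2m, -0.20 to 0.0026 for Tap2, -0.18 to 0.0638 for Psmb8, -0.0947 to 0.0496 for Psmb9, -0.20 to 0.0564 for Psmb10, -0.0045 to 0.11 for the log2 ratio Psmb9/Psmb6 and -0.13 to 0.15 for Psmb10/Psmb7.

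With the replicate number as a replicate block, 1 of the 10 genes was called at 3 months and 0 between the p25 groups. Apart from Nlrc5, all were called in CK-p25 and in CK-p25 PU.1 cKO against CK. In the latter Psmb10 was added (adjusted p = 0.0308, limma). Deviations of same-numbered 3-month libraries correlated at 0.17, 0.16 and -0.05, so the numbers were not taken to pair the libraries. Depth is unknown for these tables, which limits statements on genes near 0 such as Nlrc5 and Ifnb1.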

Other observations

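Several other class I genes set CK-p25 replicate 2 apart, the library that was lowest in its group for 7 of the 10 genes. These other genes were chosen after their values were seen, and near-identical copies make the level of each uncertain. H2-Q2 was at 2.65, 107 and 2.69 FPKM in CK-p25 replicates 1 to 3. It was at 122, 106 and 116 in CK-p25 PU.1 cKO and at 11.8, 1.22 and 1.38 in CK. H2-Q1 stood at 0.0266, 2.94 and 0.0737 FPKM in CK-p25 and at 3.55, 2.59 and 3.34 in CK-p25 PU.1 cKO. In the same order, H2-Bl stood at 0.505, 5.52 and 0.489 and at 5.00, 6.11 and 6.09. H2-T24 showed the same high library in CK-p25, at 22.5, 43.6 and 19.4 FPKM, with 42.6, 36.4 and 47.0 in CK-p25 PU.1 cKO. H2-L had its low value in that library, at 10.3, 2.19 and 65.4 FPKM in CK-p25 and 2.91, 2.19 and 5.76 after PU.1 deletion. CK-p25 replicate 2 thus resembled the CK-p25 PU.1 cKO libraries in these 5 genes, while its Spi1 level was 208 FPKM. CK replicate 1, without p25 or PU.1 fl/fl, differed from the other CK libraries in the same direction for all 5. In CK, H2-Q1 was at 0.279, 0.0273 and 0.0282 FPKM and H2-Bl at 0.816, 0 and 0.0535. H2-T24 was at 19.72, 12.989 and 10.135 FPKM there, and H2-L at 0.431, 0.991 and 1.03. Some of these levels were below 1 FPKM, and the cause of the pattern was not tested. None of these genes was called between the p25 groups (adjusted p = 0.745 for each).

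The balance of light to heavy chains, also examined after values were seen, differed between libraries. B2m divided by the sum of H2-K1 and H2-D1 was 8.96, 5.33 and 5.64 in CK. The ratio was 1.96, 2.82 and 0.996 in CK-p25, and 2.47, 2.43 and 2.32 where PU.1 was deleted as well. At 3 months it was 1.09, 1.67 and 1.93 in the libraries labelled PU.1 cKO and 0.826, 1.27 and 1.43 in those labelled control.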
